A study of Mus musculus with 12 samples.

Results

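Nodal, its EGF-CFC co-receptors Tdgf1 and Cfc1, and its secreted inhibitors Lefty1, Lefty2 and Cer1 were followed in mouse CJ9 embryonic stem cells as these were directed to endoderm or to mesoderm. These 6 genes were taken by symbol from a table of 19680 genes, and each was found under a single entry. The 12 libraries fall into 4 groups of 3, namely arid4b∆ endoderm, WT endoderm, arid4b∆ mesoderm and WT mesoderm, and all cells were collected after 5 days of direction. Arid4b belongs to the SIN3-HDAC complex, a corepressor that deacetylates histones, and the study compares its deletion with WT in each lineage. The labels do not say which part of Arid4b was removed, how many clones were used, or whether libraries of a group came from different cultures. P-values therefore measure the spread among these samples alone, which may be technical.

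Nodal is a secreted ligand of the TGF-beta family that patterns the primitive streak and specifies endoderm and mesoderm. It binds activin receptors together with an EGF-CFC co-receptor, and the receptors phosphorylate SMAD2 and SMAD3, which enter the nucleus with SMAD4 and act with FOXH1 on target genes. Lefty1, Lefty2 and Cer1 are themselves induced by the pathway and block it outside the cell, which makes a negative feedback loop. In mouse embryonic stem cells Nodal, Tdgf1 and both Lefty genes are already active before differentiation.

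The libraries held 1949299 to 6678893 counts once the ribosomal RNA precursor Rn45s had been removed, and levels are given as CPM, the count scaled to a common library size after TMM normalization. In a single library 3 counts, taken as the floor, correspond to 0.506 to 1.55 CPM. Arid4b stood at 46.3 ± 4.29 CPM in arid4b∆ endoderm and 41.1 ± 3.98 CPM in WT endoderm, and at 44.7 ± 2.99 CPM in arid4b∆ mesoderm and 42.1 ± 4.78 CPM in WT mesoderm (SD, n = 3 each). Counts over the whole gene do not check a deletion of part of it, so every direction below rests on the labels. Of the lineage markers, the 6 of definitive endoderm (Foxa2, Sox17, Cxcr4, Gsc, Hhex and Cer1 itself) summed to 2.84 to 6.99 CPM in arid4b∆ endoderm and to 134 to 219 CPM in WT endoderm. They summed to 2.16 to 3.48 CPM in arid4b∆ mesoderm and to 3.50 to 8.27 CPM in WT mesoderm, so they set the lineages apart in WT and overlapped between them in arid4b∆. The 7 streak and mesoderm markers summed to 18.9 to 25.0 CPM in arid4b∆ endoderm and 240 to 263 CPM in WT endoderm. In mesoderm they summed to 24.4 to 35.6 CPM in arid4b∆, where Mesp1 had no count, and to 228 to 475 CPM in WT, and these ranges overlapped those of endoderm in both genotypes.

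Reads of some of these genes can be shared with other genes, which bears on what the counts mean. Lefty2 (chromosome 1, 180893108 to 180899107) and Lefty1 (chromosome 1, 180935022 to 180938401) lie on the same strand with 35914 bases between them, and their coding sequences of 1104 bases differ at 90 positions (91.8% identical). The stretch of 90 coding bases with the most differences, bases 35 to 124 counted from the start codon, is shown. Within the coding sequence it is where the paralogs differ most. The rest of the transcripts was not searched for such a stretch. Capitals mark the 27 positions that differ; the sequences are those of the GENCODE M21 transcripts on GRCm38.
Lefty1: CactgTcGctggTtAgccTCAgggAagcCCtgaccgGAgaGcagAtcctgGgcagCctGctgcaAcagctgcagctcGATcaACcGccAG
Lefty2: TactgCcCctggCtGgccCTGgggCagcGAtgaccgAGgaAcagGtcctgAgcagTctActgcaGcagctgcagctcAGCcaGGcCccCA
Of the 50-base windows of the transcript, 17.9% of those of Lefty1 also occur elsewhere, in every case in Lefty2, and 11.6% of those of Lefty2 occur elsewhere, nearly all of them in Lefty1. For Tdgf1 the share was 12.5%, all in the processed pseudogene Tdgf1-ps1, and for Cfc1 it was 24.3%, all in Prss40, a protease gene on the opposite strand that overlaps its end. Prss40 held 3 counts over all 12 libraries. Cer1 shared 1.78% of windows with many genes and Nodal none. How reads with several matches were counted is not given in the sources used here.

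Upstream sequence was at hand for 4 of the 6 genes, and it is printed because these 4 span the range from near loss (Cer1, Cfc1) to the smallest fall in endoderm (Nodal). Each sequence is the 250 bases before the annotated start, 5′ to 3′ along the gene, from RefSeq on GRCm38.p6. Capitals mark matches on either strand. The letters searched were AATNNACA for the cofactor FOXH1 and CAGAC for the SMAD proteins. For factors of the GATA family they were AGATAA, and the motif of many homeodomain proteins was searched as TAATTA.
Cer1 (chr4:82885152-82885401, minus strand): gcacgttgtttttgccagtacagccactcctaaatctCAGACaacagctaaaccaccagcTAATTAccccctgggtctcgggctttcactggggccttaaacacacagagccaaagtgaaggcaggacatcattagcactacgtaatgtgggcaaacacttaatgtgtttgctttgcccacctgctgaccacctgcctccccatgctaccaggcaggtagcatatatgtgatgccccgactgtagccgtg
Cfc1 (chr1:34535398-34535647, plus strand): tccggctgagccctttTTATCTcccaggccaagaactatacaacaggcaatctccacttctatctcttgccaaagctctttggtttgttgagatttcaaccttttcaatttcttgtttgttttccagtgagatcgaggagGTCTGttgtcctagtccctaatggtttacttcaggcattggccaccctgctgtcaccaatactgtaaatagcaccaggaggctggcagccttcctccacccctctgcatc
Tdgf1 (chr9:110946159-110946408, minus strand): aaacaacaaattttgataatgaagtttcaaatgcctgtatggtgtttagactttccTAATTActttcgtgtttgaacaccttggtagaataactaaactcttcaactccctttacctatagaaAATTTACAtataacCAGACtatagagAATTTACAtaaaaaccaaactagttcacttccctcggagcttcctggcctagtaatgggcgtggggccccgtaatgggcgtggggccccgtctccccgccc
Nodal (chr10:61417722-61417971, plus strand): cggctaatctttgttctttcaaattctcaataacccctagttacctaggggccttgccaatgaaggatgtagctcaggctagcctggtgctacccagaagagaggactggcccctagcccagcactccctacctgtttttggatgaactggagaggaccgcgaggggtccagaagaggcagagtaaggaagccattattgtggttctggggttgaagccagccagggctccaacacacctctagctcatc
Tdgf1 held AATNNACA at a pair of places, with a CAGAC between them, and its TAATTA lay further upstream. Cer1 held CAGAC and TAATTA, Cfc1 held CAGAC and AGATAA on its minus strand, and Nodal held none of these letters. GGTGTGA (T-box), TAATCC (GSC and OTX2) and TATAAA were also searched and were in none of the 4. Among 32851 promoter windows of the same length, 10.9% held AATNNACA, 42.2% CAGAC, 9.99% AGATAA, 4.84% TAATTA, 3.33% GGTGTGA, 6.25% TAATCC and 12.4% TATAAA. None of the motif letters overlapped another match.

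In cells directed to endoderm, the members were lower in arid4b∆ than in WT. Cer1 and Cfc1 were nearly absent, Tdgf1 was about 4.99-fold lower, and Lefty2, Lefty1 and Nodal fell less. The groups did not overlap for any member. In an edgeR quasi-likelihood test of all 12 libraries, 6.92% of the 11635 genes tested were called lower in this comparison, 5.78% higher and 12.7% in either direction, at an adjusted p of 0.05; for 30.2% of genes the groups did not overlap. All 6 members passed the filter on low counts. Cer1 and Cfc1 passed it through WT endoderm alone and so had to differ, which leaves Nodal, Tdgf1, Lefty1 and Lefty2 as the members whose calls inform, and each of these 4 was called lower.

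Nodal, the ligand (chromosome 10, 61417972 to 61425338), stood at 18.4, 15.3 and 20.1 CPM in the arid4b∆ endoderm libraries and at 39.4, 32.5 and 41.4 CPM in the WT endoderm libraries. Every arid4b∆ library lay below every WT library. The log2 fold change was −1.07 ± 0.17 (SE; edgeR adjusted p = 0.000107), a 2.1-fold fall. In bulk RNA, fewer cells that express a gene and less RNA of it in each cell cannot be told apart, here and for the genes below.

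Tdgf1 (Cripto; chromosome 9, 110939608 to 110946158), the EGF-CFC co-receptor that is abundant in embryonic stem cells and the epiblast, stood at 39.3, 29.0 and 49.9 CPM in arid4b∆ endoderm against 170, 218 and 196 CPM in WT endoderm. The highest arid4b∆ library was far below the lowest WT library. The log2 fold change was −2.32 ± 0.18 (SE; edgeR adjusted p = 5.69e-09), or 4.99-fold lower. Cfc1 (Cryptic; chromosome 1, 34535648 to 34544311), the co-receptor known for left-right patterning, had 0, 1 and 0 counts in arid4b∆ endoderm against 31, 79 and 35 counts in WT endoderm. WT exceeded arid4b∆ by a count ratio of 162 (95% exact binomial interval 28.6 to 6430, counting error only). The co-receptors thus fell by unequal amounts.

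Among the inhibitors, Cer1 (Cerberus-like; chromosome 4, 82881751 to 82885151), which is secreted by anterior endoderm and binds Nodal, had 1, 2 and 0 counts in arid4b∆ endoderm against 187, 573 and 211 counts in WT endoderm. WT exceeded arid4b∆ by a count ratio of 361 (95% exact binomial interval 123 to 1750). As CPM, Cer1 stood at no more than 0.34 in any arid4b∆ library and at 54.6, 98.5 and 59.8 in the WT libraries, of which library 2 was the highest.

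Lefty1, a TGF-beta family antagonist of Nodal, did not fall as far as Cer1. It stood at 32.9, 23.3 and 29.8 CPM in arid4b∆ endoderm against 81.1, 88.6 and 64.9 CPM in WT endoderm (−1.48 ± 0.14 as log2 fold change and SE; edgeR adjusted p = 7.54e-08). Lefty2, its paralog, stood at 5.25, 4.59 and 7.91 CPM in arid4b∆ endoderm against 16.3, 31.8 and 17.3 CPM in WT endoderm (−1.93 ± 0.30, edgeR adjusted p = 0.00011). Both remained well above the level of 3 counts in every arid4b∆ library. WT endoderm library 2 was the highest WT library for Cer1, Cfc1, Tdgf1, Lefty1 and Lefty2 and the lowest for Nodal; without it the 6 calls were the same.

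**Figure D1:**
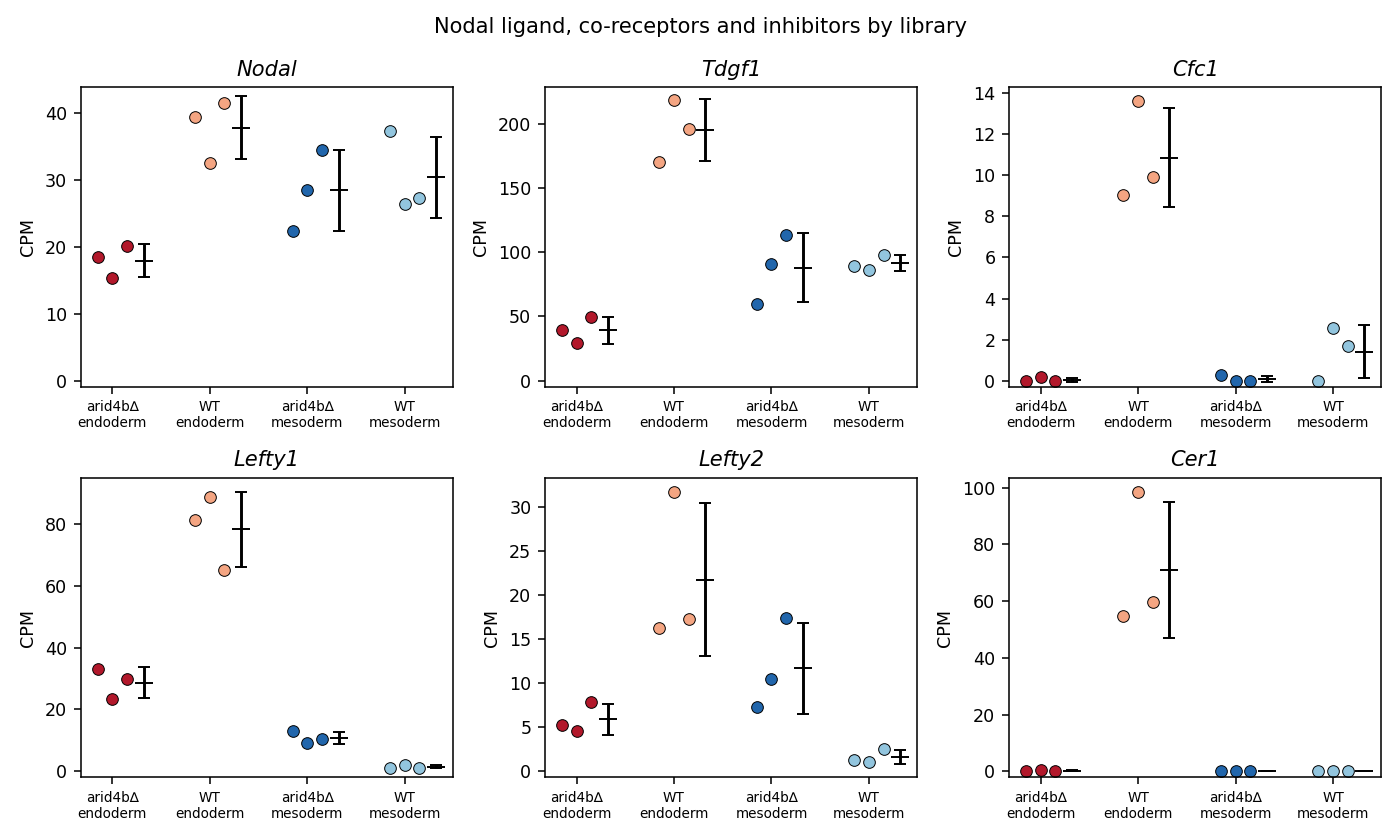
Level of each gene in CPM (vertical axes, linear and from 0) in the 3 libraries of each group (points, library 1 to 3 from left to right), with the mean (dash) and SD (whiskers). All 6 genes are highest in WT endoderm on average; Lefty1 and Lefty2 are higher in arid4b∆ mesoderm than in WT mesoderm, and Cer1 has no count in either mesoderm group.

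In cells directed to mesoderm the members did not move together. Lefty1 and Lefty2 were higher in arid4b∆ than in WT, Cfc1 was called lower on few counts, and Nodal and Tdgf1 were not called. Cer1 had no count in any of the 6 mesoderm libraries, which allows up to 0.285 CPM in arid4b∆ mesoderm and 0.253 CPM in WT mesoderm (3 counts over each group). In this comparison 19.1% of the genes tested were called in either direction, 8.97% higher and 10.1% lower, and for 32.8% the groups did not overlap.

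Lefty1 stood at 12.9, 9.26 and 10.4 CPM in arid4b∆ mesoderm against 1.25, 2.07 and 1.18 CPM in WT mesoderm. These WT levels rest on 5, 4 and 7 counts. The groups were far apart, with a log2 fold change of 2.98 ± 0.33 (SE; edgeR adjusted p = 1.32e-06) and a count ratio of 8.08 (95% exact binomial interval 4.77 to 14.6). Lefty2 stood at 7.29, 10.5 and 17.4 CPM in arid4b∆ mesoderm against 1.25, 1.03 and 2.53 CPM in WT mesoderm, and rose by 2.67 ± 0.44 on the log2 scale (edgeR adjusted p = 0.000156; count ratio 6.39, interval 4.04 to 10.6). The WT levels rest on 5, 2 and 15 counts, and that of library 2 lies under its level of 3 counts, 1.55 CPM. Without WT mesoderm library 3, which held 15 of the 22 WT counts, the log2 fold change of Lefty2 was 3.29.

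Cfc1 had 1, 0 and 0 counts in arid4b∆ mesoderm against 0, 5 and 10 counts in WT mesoderm, so 1 WT library was as empty as the arid4b∆ libraries. WT exceeded arid4b∆ by a count ratio of 13.3 (95% exact binomial interval 2.05 to 562), with an edgeR adjusted p of 0.0441. That call ended without any 1 of WT mesoderm libraries 2 and 3, arid4b∆ mesoderm libraries 2 and 3, the 3 WT endoderm libraries and arid4b∆ endoderm library 2, with adjusted p of 0.0504 to 0.215. In a fit of the 6 mesoderm libraries alone Cfc1 did not pass the filter on low counts and had no test; it was tested here because WT endoderm carried it past the filter. The fitted log2 fold change was −3.38 ± 1.15 (SE). It was −5.44 without arid4b∆ mesoderm library 1, which holds the single arid4b∆ count, and −3.97 without WT mesoderm library 1.

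Nodal stood at 22.4, 28.4 and 34.5 CPM in arid4b∆ mesoderm against 37.3, 26.4 and 27.3 CPM in WT mesoderm (log2 fold change −0.10 ± 0.17 SE, edgeR adjusted p = 0.732). Tdgf1 stood at 59.7, 91.0 and 113 CPM in arid4b∆ mesoderm against 89.6, 86.3 and 98.1 CPM in WT mesoderm (−0.06 ± 0.18, edgeR adjusted p = 0.85). The groups overlapped for both genes, and arid4b∆ mesoderm library 1 was the lowest arid4b∆ library for each.

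Whether the genotype effect itself differed between lineages was tested as an interaction, which was called for 1.4% of all genes tested, 0.774% in the negative and 0.627% in the positive direction. Lefty1 and Lefty2 had the largest such differences among the members that could be compared. The effect in endoderm minus that in mesoderm was −4.46 ± 0.35 on the log2 scale for Lefty1 (SE; edgeR adjusted p = 2.3e-07) and −4.59 ± 0.52 for Lefty2 (adjusted p = 2.06e-05). For Lefty2 it was −5.22 without WT mesoderm library 3. For Tdgf1 it was −2.25 ± 0.25 (adjusted p = 1.49e-05). For Nodal it was −0.97 ± 0.24 (adjusted p = 0.0416), and this call ended when library sizes were not scaled (adjusted p = 0.198) and without any 1 of 8 libraries (0.0554 to 0.161). Those were WT endoderm libraries 1 and 3, arid4b∆ endoderm libraries 1 and 2, WT mesoderm libraries 2 and 3, and arid4b∆ mesoderm libraries 2 and 3. Cfc1 was not called (adjusted p = 0.731), with 1 count in each arid4b∆ group, and Cer1 could not be compared because mesoderm held no counts.

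A fall in endoderm together with a rise in mesoderm was rare in the table. Of the 11635 genes, 15 (0.129%) were called lower in arid4b∆ endoderm and higher in arid4b∆ mesoderm, Lefty1 and Lefty2 among them. This pattern was looked up after the values of Lefty1 and Lefty2 had been seen. The same 15 include Pmepa1, a feedback gene of TGF-beta and Nodal signalling, and Sfrp1, a secreted Wnt inhibitor.

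The comparison of lineages shows the same values from the other side, since it uses the same libraries. In WT, 4.41% of the genes tested were called higher in endoderm than in mesoderm, 5.43% lower and 9.84% in either direction, and for 24.5% the groups did not overlap. Of the members, 5 were called higher; Cer1 and Cfc1 are among these and passed the filter through WT endoderm alone, so that their calls do not inform, which leaves Lefty1, Lefty2 and Tdgf1. Cer1, with 971 counts in WT endoderm and none in WT mesoderm, was at least 301-fold higher (floor of 3 counts over the group). Lefty1 was higher by 5.83 ± 0.24 on the log2 scale (SE; edgeR adjusted p = 5.04e-13), Lefty2 by 3.60 ± 0.39 (adjusted p = 1.08e-06, and 4.22 without WT mesoderm library 3) and Tdgf1 by 1.09 ± 0.17 (adjusted p = 0.000114). Cfc1 held 145 counts against 15, a ratio of 8.98 (95% exact binomial interval 5.27 to 16.5); without WT mesoderm library 1, which had no Cfc1 count, its log2 difference was 2.50 instead of 3.09. Nodal was not called (0.29 ± 0.16, adjusted p = 0.315).

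In arid4b∆ the called order of the lineages was reversed for Tdgf1 alone among the members. Tdgf1 was lower in endoderm than in mesoderm, by −1.17 ± 0.19 on the log2 scale (SE; edgeR adjusted p = 0.00187), where it was higher in WT. Lefty1 was still higher in endoderm (1.37 ± 0.18, adjusted p = 0.000278). Nodal was lower in endoderm (−0.68 ± 0.17, adjusted p = 0.0462), a call that ended with DESeq2 (adjusted p = 0.0624), without scaling (0.343) and without any 1 of WT endoderm libraries 1 and 3, arid4b∆ endoderm libraries 1 to 3 and arid4b∆ mesoderm libraries 2 and 3 (0.0592 to 0.334). Lefty2 was not called (−0.99 ± 0.33, adjusted p = 0.155; 0.00188 with no filter on low counts). Cer1, with 3 counts against 0, and Cfc1, with 1 against 1, were too low to compare. Over all genes, 1.85% were called in either direction, 0.945% higher and 0.902% lower, and for 18.2% the groups did not overlap. A reversal like that of Tdgf1, called higher in WT endoderm and lower in arid4b∆ endoderm than in the matching mesoderm, was found for 4 of 11635 genes (0.0344%). These were Tdgf1, Camk1d, Nptx2 and Sgk1, looked up after Tdgf1 had been seen.

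**Figure D2:**
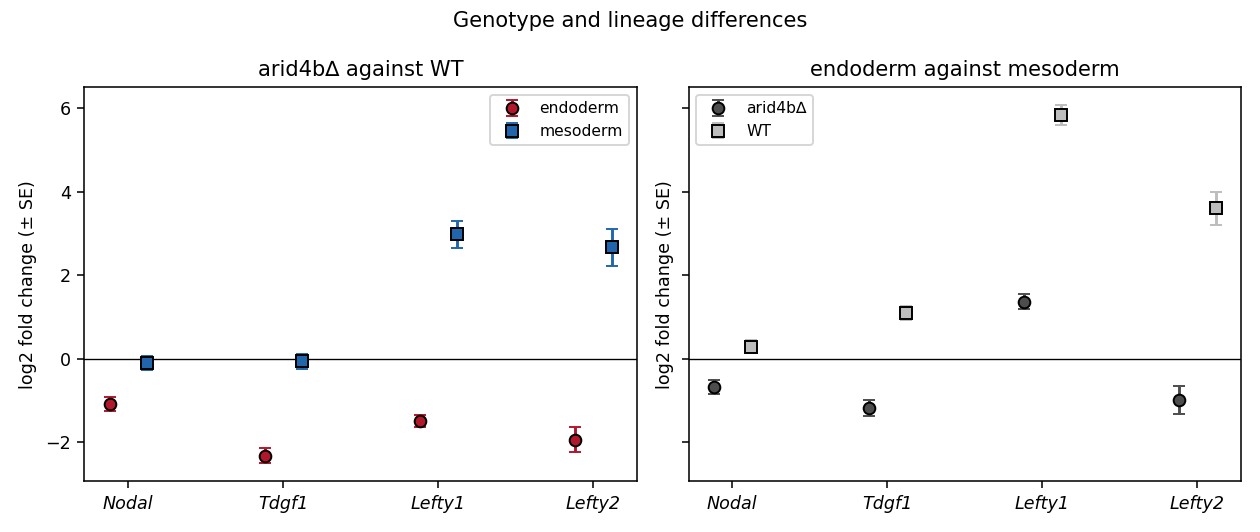
Log2 fold change (vertical axis, with SE bars) of arid4b∆ against WT in endoderm and mesoderm (left) and of endoderm against mesoderm in arid4b∆ and WT (right) for Nodal, Tdgf1, Lefty1 and Lefty2, which had more than 1 count in every library; Cfc1 and Cer1 were near or at 0 in several groups and are left out. Lefty1 and Lefty2 lie below 0 in endoderm and above 0 in mesoderm on the left. On the right Nodal, Tdgf1 and Lefty2 change sign between genotypes, and of these only Tdgf1 was called in both.

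Ordered by level, Lefty1 ran from WT endoderm (64.9 to 88.6 CPM) to arid4b∆ endoderm (23.3 to 32.9), arid4b∆ mesoderm (9.26 to 12.9) and WT mesoderm (1.18 to 2.07), with no overlap between neighbours. Lefty2 was highest in WT endoderm and lowest in WT mesoderm, but WT endoderm (16.3 to 31.8 CPM) overlapped arid4b∆ mesoderm (7.29 to 17.4), which overlapped arid4b∆ endoderm (4.59 to 7.91). Tdgf1 was highest in WT endoderm (170 to 218 CPM) and lowest in arid4b∆ endoderm (29.0 to 49.9), and the mesoderm groups lay between and overlapped. Nodal kept a narrow range, with its lowest group, arid4b∆ endoderm (15.3 to 20.1 CPM), apart from the others and the remaining groups overlapping between 22.4 and 41.4 CPM. Nodal therefore varied less over the groups than its inhibitors did.

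Levels of different genes were compared per kilobase of annotated exon. In arid4b∆ endoderm, Lefty1 (16.3 ± 2.81 CPM per kb; SD, n = 3) and Tdgf1 (15.0 ± 3.98) led, followed by Nodal (8.55 ± 1.16) and Lefty2 (2.27 ± 0.674). In WT endoderm Tdgf1 led with 74.3 ± 9.15 CPM per kb, before Lefty1 (44.5 ± 6.89), Cer1 (40.8 ± 13.8), Nodal (18.0 ± 2.22), Cfc1 (10.4 ± 2.32) and Lefty2 (8.36 ± 3.32). Tdgf1 also led in arid4b∆ mesoderm (33.5 ± 10.2 CPM per kb) and WT mesoderm (34.8 ± 2.31), each time with Nodal next, at 13.6 ± 2.88 and 14.5 ± 2.88. The inhibitors came after Nodal in mesoderm, Lefty1 at 6.18 ± 1.06 and Lefty2 at 4.49 ± 1.98 CPM per kb in arid4b∆ mesoderm, against 0.853 ± 0.28 and 0.615 ± 0.31 in WT mesoderm.

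The balance of the Lefty inhibitors to the ligand within a library does not depend on library scaling. It was taken as the log2 ratio of Lefty1 plus Lefty2 counts to Nodal counts, with 0.5 added to each. Cer1 is not part of this ratio. In mesoderm the ratio was −0.15, −0.52 and −0.31 in arid4b∆ libraries and −3.83, −2.99 and −2.85 in WT libraries. The groups did not overlap and their means differed by 2.90 (exact two-sided permutation test, p = 0.1, the smallest that 3 against 3 libraries allow). In endoderm the ratio was 1.05, 0.86 and 0.91 in arid4b∆ libraries and 1.30, 1.89 and 0.99 in WT libraries, which overlapped (difference −0.45, exact permutation p = 0.2). There the Lefty genes and Nodal all fell, so the ratio moved less. The overlap holds for the Lefty genes only, since Cer1 held 971 counts in WT endoderm and 3 in arid4b∆ endoderm.

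The log2 ratio of Lefty1 to Lefty2 counts tells whether the paralogs moved alike. In endoderm it was 2.28 ± 0.36 in arid4b∆ and 1.89 ± 0.41 in WT (SD, n = 3; exact permutation p = 0.2). In mesoderm it was −0.03 ± 0.78 in arid4b∆ and −0.07 ± 0.95 in WT (exact permutation p = 1.0), and the difference of 0.03 changed sign without arid4b∆ library 1 or WT library 3. No shift of the ratio with genotype was detectable with 3 libraries a group; the part of reads shared between the paralogs was not tested. Between the lineages the ratio was higher in endoderm in every library of both genotypes, with endoderm libraries from 1.47 to 2.62 and mesoderm libraries from −1.05 to 0.85; that difference was not tested.

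**Figure D3:**
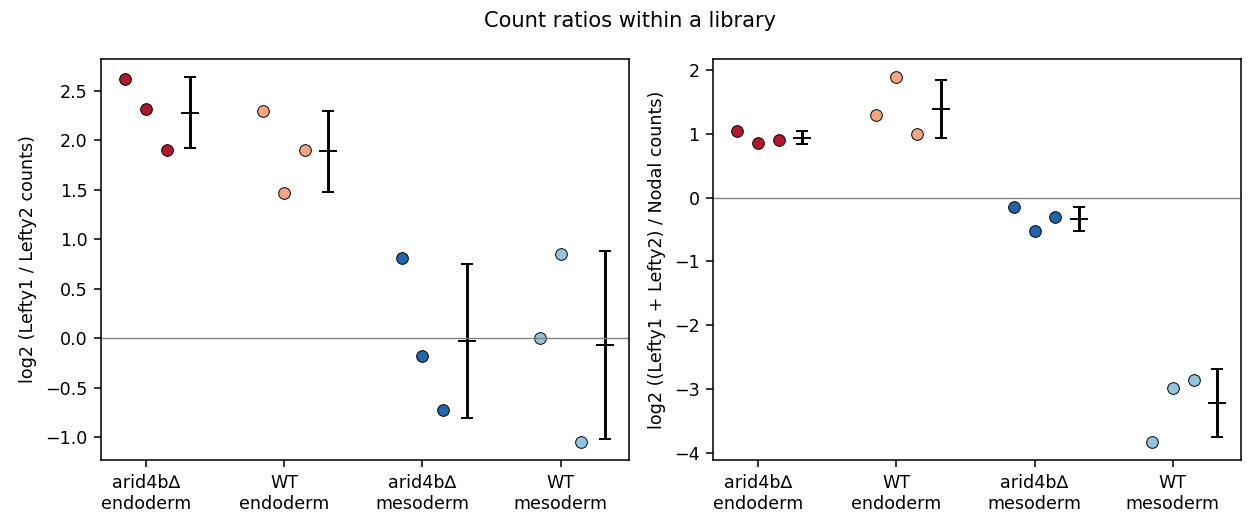
Log2 ratio of Lefty1 to Lefty2 counts (left) and of Lefty1 plus Lefty2 to Nodal counts (right) in each library (points, library 1 to 3 from left to right), with the mean (dash) and SD (whiskers). On the right, the arid4b∆ mesoderm libraries lie between −0.52 and −0.15 and the WT mesoderm libraries between −3.83 and −2.85.

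Other genes of the pathway were followed by role, with 35 of 40 listed genes tested. In endoderm 13 of the 35 were called lower and 2 higher, where 6.92% and 5.78% of all genes tested were. Gsc, Foxa2, Sox17, Hhex and Foxa1 are among the 13. They passed the filter on low counts through WT endoderm alone and had to differ, so the 13 cannot be set against 6.92% as they stand. The median log2 fold change of the 35 in endoderm was −0.25, against −0.004 over all genes tested. In mesoderm 7 were lower and 7 higher, where 10.1% and 8.97% of all genes tested were, with a median of −0.19 against 0.007. The calls lay mostly among ligands and target genes. None of the 4 transducers and none of the 3 receptors tested was called in endoderm. In the interaction 5 of the 35 were called, all of them target genes, where 1.4% of all genes tested were. Foxa1 and Hhex are among them and passed the filter on low counts through WT endoderm alone.

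RNA of the receptors, transducers and convertases tested was not called in endoderm, and in mesoderm only Acvr2b and Pcsk6 were called. The co-receptors Tdgf1 and Cfc1, which act with these receptors, fell in endoderm as given above. Smad2 and Smad3, the receptor-activated SMADs, had log2 fold changes of −0.05 ± 0.12 and −0.20 ± 0.14 in endoderm (SE) and of −0.17 ± 0.12 and −0.41 ± 0.15 in mesoderm. Smad4, their shared partner, had −0.04 ± 0.10 in endoderm and −0.27 ± 0.11 in mesoderm, and Foxh1, the forkhead cofactor, 0.10 ± 0.16 and −0.18 ± 0.16. Of these 4 genes the lowest edgeR adjusted p was 0.0541, that of Smad3 in mesoderm. The type I receptor Acvr1b had −0.35 ± 0.17 in endoderm and −0.22 ± 0.18 in mesoderm, and the type II receptor Acvr2a −0.22 ± 0.16 and −0.23 ± 0.17. Acvr2b, another type II receptor, fell in mesoderm to a mean of 90.4 CPM in arid4b∆, against 126 CPM in WT (−0.47 ± 0.11, adjusted p = 0.00545), and was not called in endoderm (−0.26 ± 0.11, adjusted p = 0.135). Acvr1c was too low to test. Of the convertases that cleave the Nodal precursor, Furin had −0.13 ± 0.13 and −0.19 ± 0.14, while Pcsk6 rose in mesoderm (0.88 ± 0.23, adjusted p = 0.00802) and stood at 0.70 ± 0.24 in endoderm (adjusted p = 0.0537).

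Among related and upstream ligands, 3 of 6 were tested, and all 3 were called in both lineages. Over all genes tested, 12.7% were called in endoderm and 19.1% in mesoderm. Wnt3, which acts upstream of Nodal in the streak, fell in both, with log2 fold changes of −1.90 ± 0.17 in endoderm (SE; edgeR adjusted p = 6.53e-08) and −1.68 ± 0.15 in mesoderm (adjusted p = 8.79e-08). Gdf3, a Nodal-related ligand of pluripotent cells, rose by 1.87 ± 0.56 in endoderm (adjusted p = 0.031) and by 1.21 ± 0.38 in mesoderm (adjusted p = 0.0287). Its level in WT endoderm rests on 9 counts over the group (0.344 to 1.42 CPM), near the floor. Gdf1, a ligand that works with Nodal and whose transcript is shared with Cers1, rose by 0.83 ± 0.26 in endoderm (adjusted p = 0.0425) and by 1.74 ± 0.30 in mesoderm (adjusted p = 0.000241). Inhba, Inhbb and Bmp4 were too low to test.

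Of 11 other inhibitors and feedback genes tested, 2 fell in endoderm (6.92% of all genes did). In mesoderm 1 fell and 2 rose (10.1% and 8.97% of all genes did). Fst, which encodes the activin inhibitor follistatin, fell in both lineages, with log2 fold changes of −2.69 ± 0.22 in endoderm (SE; edgeR adjusted p = 1.73e-08) and −3.06 ± 0.21 in mesoderm (adjusted p = 2.65e-09). It therefore went the opposite way to the Lefty genes in mesoderm. Smad7, an inhibitory SMAD induced by the pathway, rose in mesoderm to 49.2 CPM in arid4b∆, against 24.4 CPM in WT (0.89 ± 0.18, adjusted p = 0.00119), and Skil, a corepressor of SMADs, to 181 CPM in arid4b∆ against 121 CPM in WT (0.56 ± 0.11, adjusted p = 0.00125). Tgif1, another SMAD corepressor, fell in endoderm (−0.36 ± 0.10, adjusted p = 0.0164). Tmeff1, a membrane protein that binds Cripto, was not called in endoderm (−0.28 ± 0.12, adjusted p = 0.119) or mesoderm (−0.31 ± 0.13, adjusted p = 0.0969), nor was Skil in endoderm (0.26 ± 0.11, adjusted p = 0.135).

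Of 12 target genes, 10 fell in endoderm, where 6.92% of all genes tested did. The smallest adjusted p was that of Lhx1 (0.515 CPM in arid4b∆ against 59.1 CPM in WT), Eomes (15.4 against 119), Foxa2 (0.619 against 24.5) and Mixl1 (2.14 against 43.2). These are transcription factors of the streak and the endoderm. Gsc, Foxa2, Sox17, Hhex and Foxa1 stood at no more than 1.55 CPM in any library outside WT endoderm. They passed the filter on low counts through WT endoderm alone and so had to differ. That leaves Eomes, Mixl1, Lhx1, T and Pmepa1 as the falls that inform. Gsc, Foxa2, Sox17, Hhex, Eomes, Mixl1 and T are also among the lineage markers summed above. In mesoderm 4 fell, including T (4.73 CPM in arid4b∆ against 220 CPM in WT), Eomes and Mixl1, and 2 rose. Of all genes tested, 10.1% fell and 8.97% rose there. The genes that rose in mesoderm were Otx2, a homeobox factor of the epiblast and anterior tissues, and Pmepa1. Otx2 stood at 68.4 CPM in arid4b∆ mesoderm and 17.5 CPM in WT mesoderm (1.95 ± 0.18, edgeR adjusted p = 2e-07) and at 88.3 CPM in arid4b∆ endoderm and 105 CPM in WT endoderm (−0.25 ± 0.14, adjusted p = 0.286). Pmepa1 stood at 19.9 CPM in arid4b∆ mesoderm and 11.7 CPM in WT mesoderm (0.72 ± 0.18, adjusted p = 0.00622) and at 33.0 CPM in arid4b∆ endoderm and 49.3 CPM in WT endoderm (−0.56 ± 0.13, adjusted p = 0.00614). In the interaction Otx2 (−2.20 ± 0.23, adjusted p = 8.76e-06), Pmepa1 (−1.28 ± 0.22, adjusted p = 0.0024), Eomes (−1.15 ± 0.22, adjusted p = 0.00699), Foxa1 (adjusted p = 0.0189) and Hhex (adjusted p = 0.0452) were called, all with a negative difference. Foxa1 held 2, 4 and 1 counts in arid4b∆ endoderm, arid4b∆ mesoderm and WT mesoderm, and Hhex 13, 13 and 17. Their calls thus rest on WT endoderm, through which alone they passed the filter, and do not inform. Genes listed as targets went different ways in mesoderm, T, Eomes and Mixl1 down and Otx2 and Pmepa1 up, and the Lefty genes also rose. Whether these genes respond to Nodal in these cells was not tested.

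**Figure D4:**
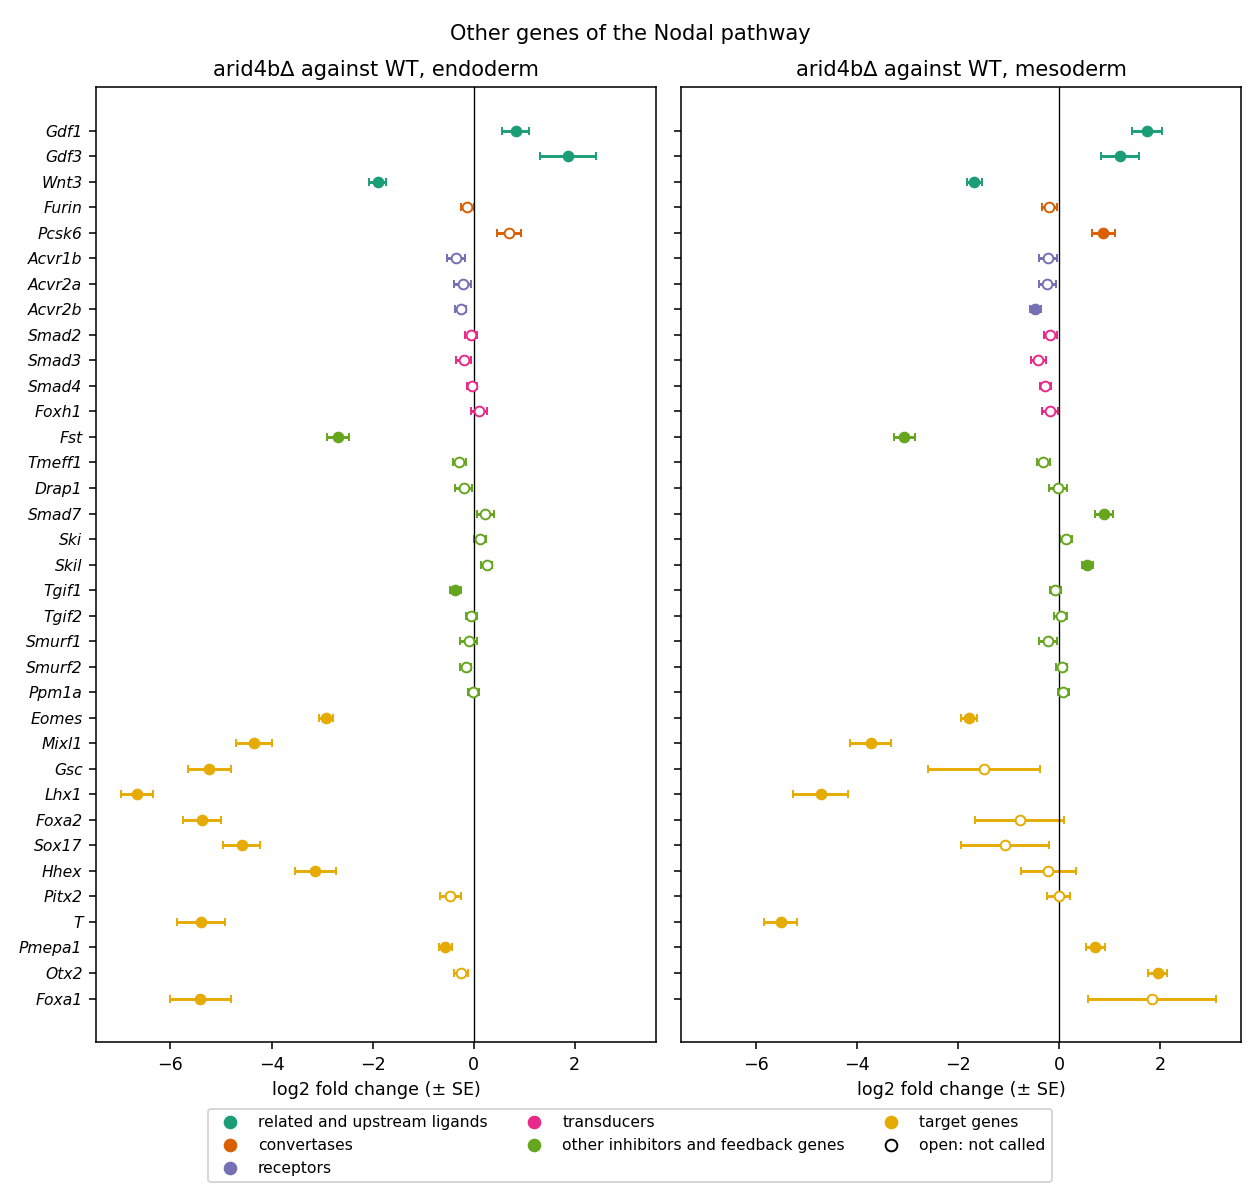
Log2 fold change (horizontal axis, with SE bars) of arid4b∆ against WT in endoderm (left) and mesoderm (right) for the 35 tested genes of the pathway list, coloured by role; open symbols were not called. Receptors and transducers lie within 0.5 of 0, while 10 of 12 target genes were called lower in endoderm. Of these, Gsc, Foxa2, Sox17, Hhex and Foxa1 passed the filter on low counts through WT endoderm alone and had to differ.

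Genes whose pattern over the 12 libraries was most like that of a member were ranked by Pearson's r of log2 CPM. The libraries share 4 groups and differ in depth, so these are descriptions. For Cer1 they were Adamts9 (r = 0.991), Rgs8 (0.985) and Gsc (0.978), and for Cfc1 Upp1 (0.974), Slc4a4 (0.969) and Cxcr4 (0.969). For Lefty1 they were Sfrp1 (0.963), Irs4 (0.962) and Pmepa1 (0.954), and for Lefty2 Il17d (0.922), Sipa1l2 (0.916) and Myc (0.909). For Tdgf1 they were Epha2 (0.933), Mycl (0.924) and Slc31a2 (0.917), and for Nodal Ubox5 (0.897), Podxl (0.892) and Rgl1 (0.879). Among the members, Nodal and Tdgf1 (r = 0.91), Cfc1 and Cer1 (0.88), and Lefty1 and Lefty2 (0.82) were the closest pairs, and Nodal with Lefty1 (0.01) the least alike.

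Sums of markers of other cells differed between genotypes for some lists and overlapped for others. The 9 pluripotency markers summed to 449 to 488 CPM in arid4b∆ endoderm and 386 to 442 CPM in WT endoderm, and to 461 to 483 CPM in arid4b∆ mesoderm and 314 to 390 CPM in WT mesoderm. Of the 8 tested, 3 rose and 1 fell in endoderm (5.78% and 6.92% of all genes did), and 2 rose and 1 fell in mesoderm (8.97% and 10.1%). Sox2 rose (0.92 ± 0.19 and 1.48 ± 0.21 on the log2 scale, SE) and Nanog fell (−1.19 ± 0.13 and −0.53 ± 0.14) in both. The largest difference in CPM was that of Utf1. It stood at 118 CPM in arid4b∆ endoderm against 49.0 in WT endoderm, and at 104 in arid4b∆ mesoderm against 14.3 in WT mesoderm. Pou5f1, Esrrb, Klf4 and Tfcp2l1 were not called in either lineage, so the sums are not a shift of the whole list. The 8 fibroblast feeder markers summed to 76.3 to 262 CPM in arid4b∆ endoderm and 18.7 to 73.3 CPM in WT endoderm, and to 88.3 to 209 CPM in arid4b∆ mesoderm and 22.7 to 99.8 CPM in WT mesoderm. Of the 6 tested, 4 rose in endoderm and 1 in mesoderm, where 5.78% and 8.97% of all genes tested rose. The part of either cell type in the values of the members was not tested. The 10 extraembryonic endoderm markers, a tissue that also makes Cer1 and Lefty1, summed to 4.67 to 11.4 CPM in arid4b∆ endoderm and 5.10 to 14.6 CPM in WT endoderm, with Rbp4 at 0 in arid4b∆ and Afp at 0 in WT. They summed to 29.7 to 36.1 CPM in arid4b∆ mesoderm and 19.1 to 50.8 CPM in WT mesoderm, where no marker was at 0 and the groups overlapped. The 5 neural markers summed to 108 to 115 CPM in arid4b∆ endoderm and 118 to 128 CPM in WT endoderm. In mesoderm they summed to 69.3 to 82.2 CPM in arid4b∆ and 68.4 to 95.1 CPM in WT. Nes, the only neural marker tested, was not called with genotype in either lineage. The 5 trophoblast markers summed to 0.509 to 2.33 CPM in arid4b∆ endoderm and 6.52 to 8.60 CPM in WT endoderm, and to 1.54 to 4.01 CPM in arid4b∆ mesoderm and 14.8 to 36.2 CPM in WT mesoderm. They did not move together. In WT mesoderm Cdx2 (mean 15.3 CPM), Tfap2c (7.87) and Hand1 (5.07) made up most of the sum. Elf5 had no count there, and Krt7 stood at 0.511 CPM, below its 1.98 CPM in WT endoderm. Elf5 also had no count in arid4b∆ endoderm, nor Cdx2 in WT endoderm. Whether any of these counts came from trophoblast cells was not tested.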

How the data were processed

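RNA from 12 libraries was depleted of ribosomal RNA and sequenced with a directional kit, per the labels' protocols. What was deposited is a table of read counts for 19680 genes, as whole numbers. The submitters' processing notes name STAR, DESeq2 and mm10 without versions; how reads were counted, and on which strand and annotation, is not stated there. Rn45s, at 79.6% to 82.4% of counts, was removed before any scaling. Also removed were 26 genes, none of them a member, with a date in place of a count in WT endoderm library 1. Mir6236 and Lars2 together took 49.7% to 69.5% of what was left and stayed in.

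Counts were analysed with edgeR 4.0.16 in R 4.3.3. The filterByExpr step (minimum count 10) left 11635 genes, library sizes were scaled by TMM, and 1 quasi-likelihood fit of 4 group means held all 12 libraries, without covariates. The biological coefficient of variation was 9.71%. P-values were adjusted by Benjamini-Hochberg over all genes tested, with a threshold of 0.05. The SE was derived from the log2 fold change and its F statistic. The edgeR procedure was tested on simulated data. Count ratios have exact 95% binomial intervals; intervals and floors of 3 counts cover counting error only, since no molecular identifiers were used to count. Exon lengths and transcripts are from GENCODE M21 (GRCm38), positions and promoters from RefSeq on GRCm38.p6.

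The members and lists were chosen with earlier results of these data known. Named are all 6 members, the receptors, SMADs, Foxh1 and convertases, up to 4 genes with the smallest adjusted p in each other role group, and the 3 genes most like each member. Pmepa1 in the genotype comparisons, Otx2 in endoderm, Hhex in the interaction, Sox2, Nanog, and the genes sharing a pattern with Lefty1 or Tdgf1 were named after their values were seen. So were Utf1, Nes, the other pluripotency and trophoblast markers given by name, and the target genes that passed the filter through WT endoderm alone. Same-numbered libraries of the groups compared had correlations of their deviations from group means of 0.0132 to 0.193, not all above 0.1, so the numbers were not taken as pairs. Alternatives were DESeq2 1.42.0, its size factors, no scaling, no filter, Mir6236 and Lars2 left out, the libraries of a single lineage or genotype, a replicate block, 1 or nothing added to counts in ratios, and leaving out each library.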

Additional observations from a re-analysis of the deposited data

Results flagged for a closer look

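For 4 members the effect of arid4b∆ against WT differed between the lineages by the test of that difference itself. The log2 effect in endoderm minus that in mesoderm was −4.46 for Lefty1 and −4.59 for Lefty2, which fell in endoderm and rose in mesoderm. It was −2.25 for Tdgf1 and −0.97 for Nodal, which fell in endoderm and were not called in mesoderm. The edgeR adjusted p was 2.3e-07, 2.06e-05, 1.49e-05 and 0.0416 in that order.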

How the results depend on the processing

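Of 488 member values under alternatives, 457 kept direction and side of the threshold, 26 lost and 2 gained a call, and 3 changed sign. The sign changes were of values not called in mesoderm, Nodal (0.08 without WT library 1, 0.04 without arid4b∆ library 1) and Tdgf1 (0.15 without arid4b∆ library 1); without single libraries these lay between −0.27 and 0.08 for Nodal and −0.29 and 0.15 for Tdgf1. Lost calls were those of Cfc1 in mesoderm and of Nodal in the interaction and in the lineage comparison of arid4b∆; the cause was not tested.

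Leaving out single libraries, members called were 6 in endoderm and 5 between lineages in WT each time, of which Cer1 and Cfc1 had to be called through the filter on low counts. They lay between 2 and 3 in mesoderm, 3 and 4 in the interaction, and 2 and 3 between lineages in arid4b∆. Genes called over all lay between 835 (without WT endoderm library 2) and 1704 in endoderm, 1480 (without WT mesoderm library 3) and 2461 in mesoderm, 104 (without arid4b∆ mesoderm library 2) and 354 (without WT mesoderm library 1) in the interaction, 740 (without WT mesoderm library 3) and 1391 between lineages in WT, and 59 (without arid4b∆ mesoderm library 3) and 317 between lineages in arid4b∆. Counts also moved by over 1.5 times without WT endoderm library 2 (105 in the interaction, 753 between lineages in WT), and, between lineages in arid4b∆, without arid4b∆ endoderm library 2 (83) or 3 (133) or arid4b∆ mesoderm library 2 (120). Without a filter 377 genes were called in the interaction and 483 between lineages in arid4b∆. With the replicate block these were 255 and 377, and Lefty2 was called between lineages in arid4b∆ (−1.03, edgeR adjusted p = 0.0341); the block ended no call of a member. Of 12 libraries, 10 correlated best with their own number, a hint from the data and not the design. The mesoderm difference of the Lefty1 to Lefty2 ratio was −0.39 without arid4b∆ library 1 and −0.46 without WT library 3, and lay between −0.46 and 0.49 without single libraries. Without scaling, the median of all genes moved by −0.154 in endoderm and −0.224 in mesoderm. Fitted log2 values of Cer1 (−8.89) and Cfc1 (−8.45) in endoderm without arid4b∆ library 2, and of Cer1 between lineages in WT with DESeq2 (10.43), rest on a group at or near 0. Levels under 3 counts were not detectable at this depth.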
